A study of Mus musculus with 2 samples.

Results

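Loci named Gm, Rik or LOC on the autosomes were examined in single-nucleus RNA-seq (snRNA-seq) of the mouse heart. The study compared 1 adult heart (9 weeks) with 1 aged heart (78 weeks) of female F1 mice from a C57BL/6J (BL6) mother and a CAST/EiJ (CAST) father. The labels give the genotype as C57BL/6JxCAST/EiJ at both ages, while their breed field names the cross with mothers carrying a deletion of Xist on 1 allele, and the methods of the study treat these females as wild type. Nuclei were sorted for the DNA dye DRAQ7, and only nuclei with the BL6 X chromosome active were pooled, so each age is 1 pooled library without a replicate. A locus was included if its name consists of Gm or LOC and digits, or ends in Rik, and if it had 20 or more SNP-overlapping reads in both libraries. The loci were thus selected on their names and total reads, and not on their allelic ratio, defined below. Of 8546 autosomal loci with such names in either library, 6198 were listed in both and 1984 met this limit. They comprise 1154 Gm, 520 Rik and 310 LOC loci, and make up 16% of the 12390 autosomal loci with 20 reads in both libraries. The limit was reached by 788 loci in the adult library alone, by 120 in the aged library alone and by 5654 in neither.

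Gm names are provisional symbols of predicted mouse genes, Rik names stem from the RIKEN full-length cDNA project, and LOC names are identifiers that RefSeq gives to genes without a symbol. Such loci are mostly long noncoding RNAs, antisense transcripts and pseudogenes, many of which lie inside or beside protein-coding genes. Some are known to act on their neighbours in cis, and at imprinted domains a noncoding RNA of 1 parental chromosome can silence genes on that chromosome. In F1 hybrids, reads over a base that differs between the strains can be assigned to the BL6 or the CAST allele. The allelic ratio is the BL6 share of these reads, so an allelic ratio of 1 is found when all reads are BL6 and an allelic ratio of 0 when all are CAST. Only this direction of the cross was measured, so an effect of the strain and an effect of the parent of origin cannot be told apart. Reads were aligned to mm10, the BL6 reference, and a loss of CAST reads in alignment was not tested.

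The RefSeq gene table of GRCm38.p6 matched 1811 of the loci, 325 of them under another symbol. It classes 1465 as lncRNA, 295 as protein coding, 19 as transcribed pseudogene, 17 as pseudogene and 15 as misc_RNA. Of the 10406 other autosomal loci, here called named genes, 98.5% are protein coding. The median locus spanned 15.2 kb, compared with 31.7 kb for the named genes. The loci held 531094 of 9747535 SNP-overlapping reads (5.45%) at 9 weeks and 291524 of 5805807 (5.02%) at 78 weeks. A typical locus had few reads, with a median of 98 at 9 weeks and 59 at 78 weeks, against 236 and 165 for the named genes.

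RefSeq promoter windows, from 250 bases before to 50 bases after an annotated start, were found for 1327 of the loci (1723 windows). The windows of the loci had fewer CG pairs than those of the named genes, with a median of 6 against 20 per 300 bases, and a median GC content of 50.7% against 61.0%. TATAAA on either strand was found in 13.8% of the windows of the loci, 7.37% of those of the named genes and 13.6% of all 32851 windows of the table. CCAAT was found in 35.5%, 36.5% and 37.4%, and GGGCGG in 26.9%, 61.2% and 35.7%, respectively. Among the loci, CCAAT was found in 45.1% of 162 windows of BL6-biased loci, 49.3% of 69 windows of CAST-biased loci and 33.8% of 1493 windows of loci with neither bias, as defined below.

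The following 6 windows belong to loci read almost entirely from 1 allele at both ages, the first 3 from BL6 and the last 3 from CAST, and are shown because these loci have the clearest allelic imbalance. They are the BL6 reference sequence of GRCm38.p6 on the strand of the transcript. Capitals mark CG pairs and CCAAT on either strand, while TATAAA and GGGCGG are in none of the 6. Gm26760 lies at chr15:92344109-92344408 (plus strand), Gm41929 at chr1:107972066-107972365 (plus), LOC102631979 at chr11:11967476-11967775 (minus), Gm40217 at chr4:105319098-105319397 (minus), Gm39429 at chr9:110282621-110282920 (minus) and Gm38836 at chr6:76711528-76711827 (minus). Gm41929 and Gm40217 have 2 windows each in the table, of which the first is shown.
Gm26760: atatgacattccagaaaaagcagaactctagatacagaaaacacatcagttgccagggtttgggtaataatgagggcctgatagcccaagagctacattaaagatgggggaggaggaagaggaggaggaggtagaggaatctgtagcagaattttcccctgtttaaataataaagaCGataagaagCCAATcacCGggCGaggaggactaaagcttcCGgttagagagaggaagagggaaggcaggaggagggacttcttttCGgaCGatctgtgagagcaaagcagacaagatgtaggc
Gm41929: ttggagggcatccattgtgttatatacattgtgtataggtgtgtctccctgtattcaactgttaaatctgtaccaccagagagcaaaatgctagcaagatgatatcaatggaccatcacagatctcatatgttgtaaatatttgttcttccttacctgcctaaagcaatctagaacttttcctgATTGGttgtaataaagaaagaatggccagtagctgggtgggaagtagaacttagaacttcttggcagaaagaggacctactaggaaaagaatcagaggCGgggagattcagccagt
LOC102631979: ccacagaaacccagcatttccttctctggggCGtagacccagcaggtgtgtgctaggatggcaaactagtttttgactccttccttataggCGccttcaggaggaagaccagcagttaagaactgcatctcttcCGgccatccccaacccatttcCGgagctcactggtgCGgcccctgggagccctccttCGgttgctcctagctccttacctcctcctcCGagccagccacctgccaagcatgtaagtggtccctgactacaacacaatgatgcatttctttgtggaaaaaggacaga
Gm40217: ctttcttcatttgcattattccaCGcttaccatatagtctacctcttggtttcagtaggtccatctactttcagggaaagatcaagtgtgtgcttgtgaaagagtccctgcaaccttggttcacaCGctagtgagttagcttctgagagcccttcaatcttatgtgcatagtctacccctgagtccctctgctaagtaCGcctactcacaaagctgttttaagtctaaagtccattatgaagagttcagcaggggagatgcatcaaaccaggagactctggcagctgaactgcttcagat
Gm39429: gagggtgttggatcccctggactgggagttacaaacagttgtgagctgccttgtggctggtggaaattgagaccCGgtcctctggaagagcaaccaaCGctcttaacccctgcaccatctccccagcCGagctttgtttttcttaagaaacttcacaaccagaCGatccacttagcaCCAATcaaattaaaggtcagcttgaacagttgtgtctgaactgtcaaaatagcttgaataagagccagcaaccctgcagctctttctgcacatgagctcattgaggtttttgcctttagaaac
Gm38836: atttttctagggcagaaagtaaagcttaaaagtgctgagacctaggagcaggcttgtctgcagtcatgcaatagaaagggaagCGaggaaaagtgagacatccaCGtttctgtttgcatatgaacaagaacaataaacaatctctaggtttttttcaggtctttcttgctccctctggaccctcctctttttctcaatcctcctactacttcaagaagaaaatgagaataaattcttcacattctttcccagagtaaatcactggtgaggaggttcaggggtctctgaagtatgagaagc
The number of CG pairs ranged from 1 (Gm41929) to 7 (LOC102631979), and CCAAT was present in Gm26760, Gm41929 and Gm39429. The windows do not separate the BL6 from the CAST loci by either feature. A match to these letters is a description and not a binding site, and the CAST sequence was not analysed here.

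Most of the loci were read from both alleles with a small excess of BL6, as were the named genes, but the spread around this level was wider. The median allelic ratio was 0.540 at 9 weeks and 0.545 at 78 weeks, and that of the named genes 0.534 and 0.536. The interquartile range of the loci was 0.446 to 0.633 at 9 weeks and 0.435 to 0.656 at 78 weeks. For the named genes it was 0.480 to 0.590 and 0.469 to 0.605. Allelic imbalance was counted as an allelic ratio of 0.7 or higher (BL6-biased) or 0.3 or lower (CAST-biased) in both libraries. By these limits 207 loci (10.4%) were BL6-biased, beside 378 named genes (3.63%) and 4.72% of all autosomal loci. A further 80 loci (4.03%) were CAST-biased, beside 136 named genes (1.31%) and 1.74% of all autosomal loci. These limits are not symmetric about the median of all autosomal loci, and with limits 0.2 to either side of it 149 loci were BL6-biased and 102 CAST-biased. At the stricter limits of 0.9 and 0.1, 35 loci (1.76%) remained on the BL6 side and 14 (0.706%) on the CAST side. Beside these were 59 (0.567%) and 16 (0.154%) of the more numerous named genes, and 0.759% and 0.242% of all autosomal loci.

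**Figure D1:**
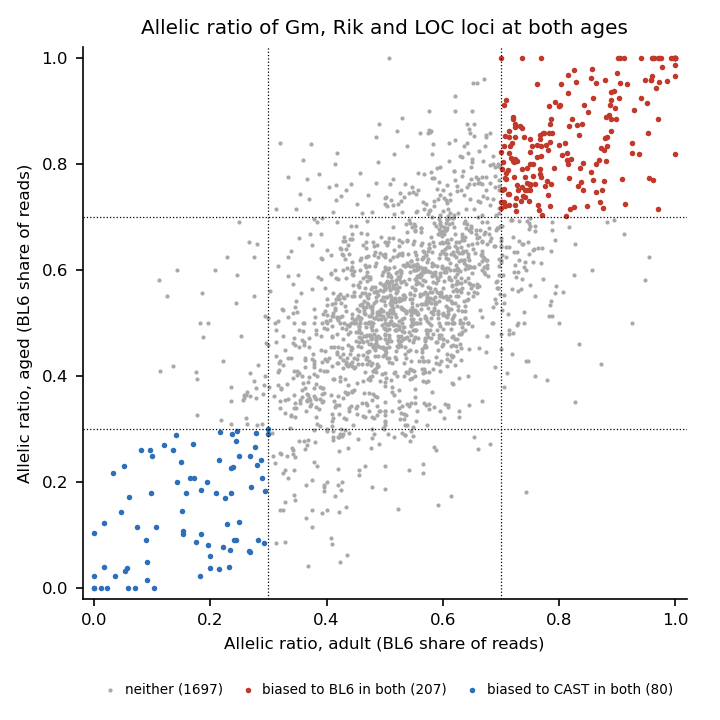
Allelic ratio in the adult library (x axis) and in the aged library (y axis), with 1 point for each of the 1984 loci and dotted lines at 0.3 and 0.7. The 207 loci biased to BL6 in both libraries are at the upper right and the 80 biased to CAST in both at the lower left, while most loci lie between 0.4 and 0.7 on both axes.

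Shallow loci give wide ratios, so the shares were set side by side at similar read numbers. In each of the 4 ranges of reads in the shallower library, both kinds of bias were more frequent among the loci than among the named genes. Among loci with 20 or more and fewer than 50 reads, 12.7% were BL6-biased against 7.35% of the named genes, and 5.51% against 2.68% were CAST-biased. With 100 or more and fewer than 500 reads, the shares were 8.83% against 2.77% for BL6 and 1.5% against 0.989% for CAST. With 500 or more reads, 4 of 89 loci (4.49%) and 20 of 2300 named genes (0.870%) were BL6-biased. Only 1 of these loci (1.12%) and 6 of these named genes (0.261%) were CAST-biased. Over all read numbers, the 115 named genes that RefSeq classes as lncRNA resembled the loci more than the other named genes, with 13% BL6-biased and 4.35% CAST-biased. Of their 15 BL6-biased and 5 CAST-biased genes, 9 and 4 had fewer than 50 reads in the shallower library.

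**Figure D2:**
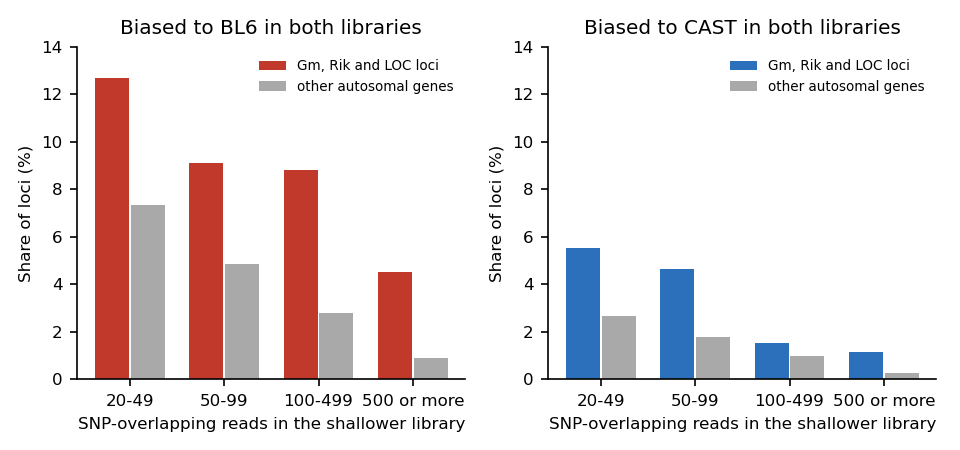
Share of loci (y axis, %) biased to BL6 (left) or to CAST (right) in both libraries, by the number of SNP-overlapping reads in the shallower library (x axis), for Gm, Rik and LOC loci (coloured bars) and other autosomal genes (grey bars). In every range the coloured bar is above the grey bar, from 12.7% against 7.35% to 4.49% against 0.870% for BL6.

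The bias of a locus was often found again in the other library. Of 305 loci that were BL6-biased in the adult library, 207 (67.9%) were so in the aged library, and of 129 CAST-biased loci, 80 (62.0%). For the named genes these shares were 58.5% and 55.5%. Pearson's correlation between adult and aged allelic ratio was 0.713 over the loci and 0.645 over the named genes, each across loci of the same pair of libraries. Only 1 locus, Gm31282, passed from the BL6 limit in the adult to the CAST limit in the aged library, and none the other way.

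The shares differed less between kinds of name than between relations to other loci. BL6 bias was found in 10.7% of Gm, 11.3% of Rik and 8.06% of LOC loci, and CAST bias in 5.2%, 2.69% and 1.94%. Among the 580 loci that overlap no other locus, 86 (14.8%) were BL6-biased and 47 (8.10%) CAST-biased. Among the 796 that overlap a named gene on the opposite strand, 47 (5.90%) and 13 (1.63%) were. Among the 113 on the strand of the named gene, 9 (7.96%) were BL6-biased and none CAST-biased. The highest share of BL6-biased loci, 43 of 202 (21.3%), was found among loci that overlap only other Gm, Rik or LOC loci and so may share reads with each other.

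The locus with the most one-sided reads was Gm39020, which lies on chromosome 7 from 58842545 to 59081916 without an entry in the RefSeq table. It stands between Atp10a, a phospholipid flippase gene, and Ube3a, the ubiquitin ligase gene of Angelman syndrome that is imprinted in neurons. Of its reads, 1625 of 1631 were BL6 at 9 weeks and 157 of 157 at 78 weeks, giving an allelic ratio of 0.996 (95% interval 0.992 to 0.999) and a lower limit of 0.977. Both neighbours were read from both alleles, Atp10a with an allelic ratio of 0.552 and 0.600 and Ube3a with 0.492 and 0.532. C230091D08Rik, which RefSeq lists as Snhg14, the long transcript that runs antisense to Ube3a in neurons, had 0.448 and 0.550. The strong bias at Gm39020 was therefore not shared by the loci on its sides.

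Gm26760, a lncRNA locus on chromosome 15 from 92343775 to 92366929, had 263 of 265 BL6 reads at 9 weeks and 97 of 97 at 78 weeks. It lies 1.81 kb from Cntn1, which had an allelic ratio of 0.792 (0.578 to 0.929) from 24 adult reads and 0.647 from 34 aged reads. Pdzrn4 on the other side, with 4812 and 1129 reads, had 0.561 and 0.658. Gm35268 on chromosome 19, from 27312632 to 27321729, had 245 of 251 and 77 of 77, and the nearest named gene, the lipoprotein receptor gene Vldlr, had an allelic ratio of 0.611 and 0.589. Gm34755 on chromosome 6, from 128798913 to 128805831, had 255 of 269 and 159 of 166, an allelic ratio of 0.948 (0.914 to 0.971) and 0.958 (0.915 to 0.983). Gm14410 on chromosome 2 was read from BL6 alone, with 55 and 70 reads, but lies within Gm14412 and Gm14403 in a cluster of zinc finger genes with close copies, so its reads are uncertain. With Gm39020, these loci had an allelic ratio of 0.948 or higher in both libraries.

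LOC102631979, a lncRNA locus from 11958406 to 11967116 on chromosome 11, lies inside Grb10 on the same strand. Grb10 encodes a growth factor receptor adaptor and is imprinted, with the maternal allele expressed in most tissues. LOC102631979 had 328 of 328 BL6 reads at 9 weeks and 200 of 203 at 78 weeks. Grb10 itself had an allelic ratio of 0.998 and 0.995, and still 0.997 and 0.997 without the reads of LOC102631979. The locus thus showed the ratio of its host gene.

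BL6-biased loci also lay next to each other. On chromosome 1, D830032E09Rik, Gm28282 and Gm41929 follow each other from 107917259 to 107978949. Their allelic ratio was 0.864, 0.973 and 0.971 at 9 weeks and 0.951, 1 and 1 at 78 weeks, and Gm28282 and Gm41929 overlap. On chromosome 3, 5 BL6-biased loci lay between 149082268 and 149516022 without a named gene between them, and this stretch was chosen after its values were seen. The deepest of them, LOC108167379 (listed by RefSeq as Gm30382), spans 264 kb and had 4223 adult and 1181 aged reads with an allelic ratio of 0.725 and 0.809. Gm30575, Gm1653, LOC102631735 and Gm31060 had an allelic ratio of 0.717 to 0.859 at 9 weeks and 0.781 to 0.923 at 78 weeks. The 5 loci share this bias by selection, and the adjacent Gm30827, at 0.746 and 0.652, was not BL6-biased in both libraries. Gm1653 lies within LOC108167379 and LOC102631735 overlaps its end, so reads may be counted for both. In all, 15 such runs, of at least 2 loci within 100 kb of each other, were BL6-biased, 10 of them with overlapping loci, and 6 were CAST-biased, none with overlap. They held 16.4% of the BL6-biased and 15% of the CAST-biased loci, while such runs of named genes held 20.4% and 18.4% of the biased named genes.

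Loci read almost entirely from CAST were found as well. Gm40217 on chromosome 4, from 105310378 to 105319147, had 0 of 177 BL6 reads in the adult library (upper limit 0.0206) and 2 of 90 in the aged library (allelic ratio 0.0222). Plpp3, the nearest named gene at 77.6 kb and a lipid phosphatase gene, had an allelic ratio of 0.555 and 0.626. Gm39429 on chromosome 9, from 110266638 to 110282667, had 6 of 357 and 6 of 149, an allelic ratio of 0.0168 (0.00619 to 0.0362) and 0.0403 (0.0149 to 0.0856). Gm38836 on chromosome 6, from 76695452 to 76711577, had 1 of 84 and 0 of 40. These 3 loci overlap no other locus, so their reads are not shared.

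LOC102636203 on chromosome 3 and Gm40286 on chromosome 5 had no BL6 read at either age, from 52 and 36 reads and from 34 and 61 reads. Gm4759, a transcribed pseudogene on chromosome 7, had 3 of 82 and 2 of 89. LOC108167711 on chromosome 9 had 17 of 244 and 0 of 33, and Gm39857 on chromosome 2 had 6 of 114 and 2 of 61. The upper limit of the allelic ratio was at most 0.113 in both libraries for all 8 of these CAST loci. The nearest named gene that does not overlap was BL6-biased for 10 of 207 BL6-biased loci (4.83%), near the 3.48% of all 1984 loci, and CAST-biased for 4 of them. For the 80 CAST-biased loci it was CAST-biased for 4 (5%), beside 1.21% of all 1984 loci, and BL6-biased for 2.

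**Figure D3:**
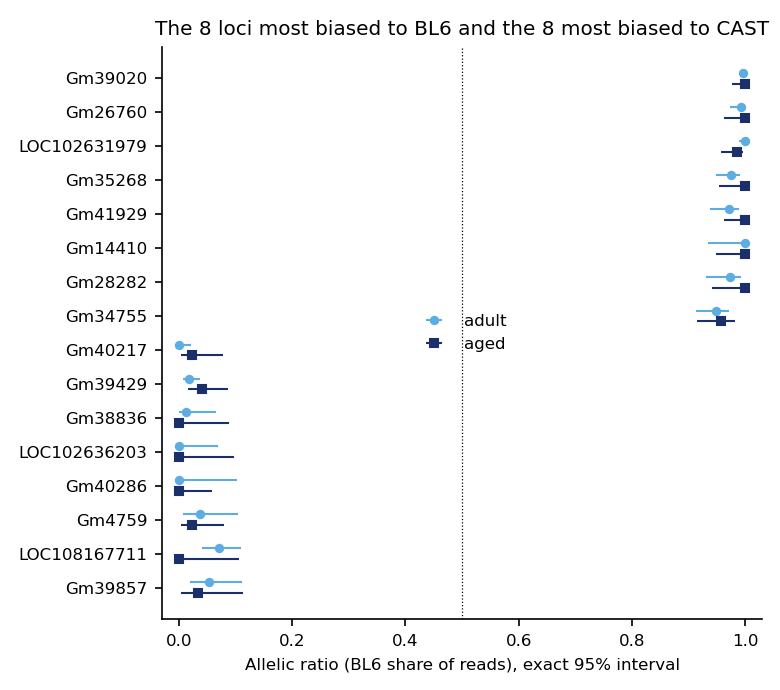
Allelic ratio (x axis) with its exact 95% interval in the adult (circles) and aged (squares) library for the 8 loci ranked most biased to BL6 and the 8 most biased to CAST (y axis). The dotted line marks 0.5, and both libraries of each locus lie on the same side, above 0.9 or below 0.12 with their intervals.

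Near imprinted genes, 9 loci were found within 100 kb of 1 of the 60 genes listed as imprinted. Besides LOC102631979, a bias in both libraries was seen at Gm36490 and Gm32840. Gm36490 lies 0.284 kb from Impact, a translational regulator gene known to be paternally expressed, and had 138 of 169 BL6 reads at 9 weeks and 81 of 93 at 78 weeks (allelic ratio 0.817 and 0.871). Impact itself had an allelic ratio of 0.485 and 0.472, with no clear side. Gm32840 overlaps the opposite strand of the amino acid transporter gene Slc38a4, which is paternally expressed, and had an allelic ratio of 0.169 (10 of 59 reads) and 0.273 (6 of 22). Slc38a4 was at 0.0671 and 0.000, so both members of this pair were read mainly from CAST. They share 16719 bp, and the reads of Gm32840 equal 39.6% and 44% of those of Slc38a4. The same reads may thus be counted for both. The other 6 loci (8430415O14Rik, Gm41343, C230091D08Rik, Gm41622, Gm12059 and Gm32057) had an allelic ratio between 0.370 and 0.685 in both libraries.

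Overlap with other loci was frequent. Of the 1984 loci, 1404 (70.8%) overlapped another locus by 1 bp or more, compared with 35.9% of the named genes. A named gene was overlapped by 1202 loci, and 914 were covered over at least 50% of their span by a single other locus. Of 699 loci that lie wholly inside a named gene with 20 reads, all 699 had no more BL6 reads and no more CAST reads than that gene in either library. The same reads may therefore be counted for both, since no source states that strand was used in counting. The nested loci held a median of 9.25% of the reads of their host gene over 7.84% of its span, and 42 held over 50% of its reads.

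The allelic ratio of a locus was compared with that of the named gene it overlaps. Among 1148 loci with a named gene of 20 reads, the median absolute difference was 0.0594 at 9 weeks and 0.0818 at 78 weeks, and 542 (47.2%) were within 0.1 in both. Pearson's correlation between the allelic ratio of locus and gene was 0.494 and 0.466 across the pairs, which share reads where the locus is nested. A difference of 0.2 or more in the same direction in both libraries was found for 49 loci (4.27%), 23 higher and 26 lower than the gene. Among all autosomal loci with an overlapping named gene, this share was 4.82%, so the loci were near this level. When the reads of a nested locus were taken out of its host, 44 of 689 nested loci (6.39%) differed.

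**Figure D4:**
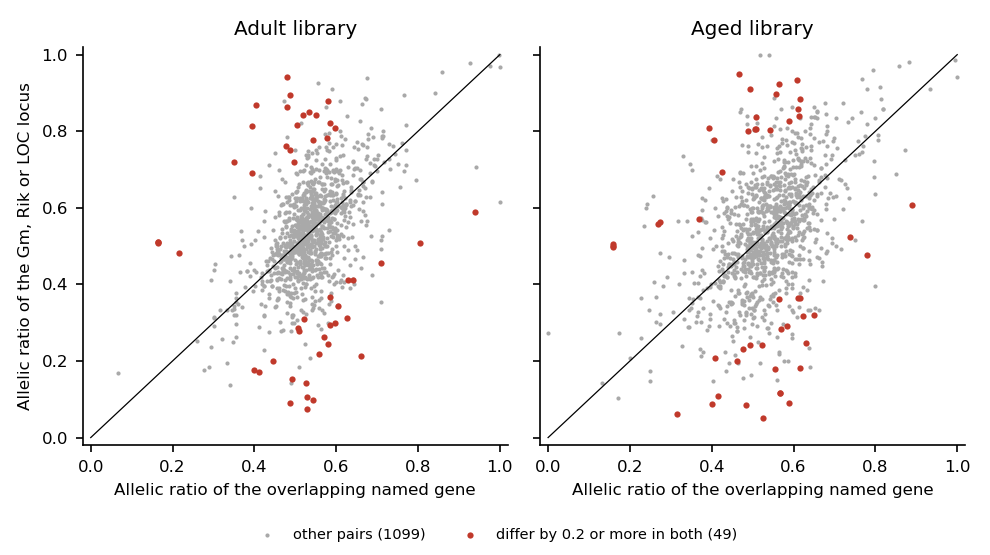
Allelic ratio of the overlapping named gene (x axis) and of the Gm, Rik or LOC locus (y axis) in the adult (left) and aged (right) library for 1148 pairs. The line marks equal ratios, and the 49 red points differ from it by 0.2 or more in the same direction in both libraries.

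The clearest differences were at 2 loci inside Pde4d, a cyclic AMP phosphodiesterase gene of cardiomyocytes on chromosome 13. Gm32703, a lncRNA locus on the strand opposite to Pde4d (109425166 to 109441193), had 20 BL6 and 252 CAST reads at 9 weeks and 11 and 84 at 78 weeks, an allelic ratio of 0.0735 and 0.116. Gm32813 (109381471 to 109400142) had 51 and 427 at 9 weeks and 20 and 153 at 78 weeks, an allelic ratio of 0.107 and 0.116. Pde4d had an allelic ratio of 0.528 and 0.566 from 65706 and 22329 reads. Both loci were therefore read mainly from CAST inside a gene read from both alleles, and together they hold 1.14% and 1.20% of its reads.

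A430078I02Rik and Gm26881 also had a lower allelic ratio than their partner, 0.0909 and 0.0500 against 0.487 and 0.525 of C87436, and 0.0980 and 0.179 against 0.544 and 0.556 of Fam214b, but these pairs share only 112 and 66 bp. 9330151L19Rik was above Dnaaf2, a dynein assembly factor gene, with 0.814 and 0.808 against 0.394 in both libraries. Gm13483 was above Mmadhc, a gene of cobalamin metabolism, with 0.941 and 0.924 against 0.479 and 0.565, but they share only 8 bp. Gm38666 and Gm38667 on chromosome 18 run through the clustered protocadherin genes and had an allelic ratio of 0.510 and 0.502, and 0.512 and 0.504, against 0.164 and 0.158 of Pcdha2. Their spans cover many genes, and their 7567 and 7536 adult reads are almost the same reads.

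Scaled reads were compared as RPM, the reads of a locus at a library total of 1000000 SNP-overlapping reads. Since the limit of 20 reads in both libraries uses the same reads, these values are a description. The median log2 ratio, aged over adult, was 0.09 for the loci and 0.25 for the named genes. A ratio of 2 or more was found for 232 loci (11.7%), beside 11.6% of all autosomal loci. At similar read numbers the share was lower than among the named genes below 100 reads, with 13.4% against 20.6% at 20 or more and fewer than 50 reads and 12.1% against 15.6% at 50 or more and fewer than 100. A ratio of 0.5 or less was found for 198 loci (9.98%), compared with 5.17% of all autosomal loci and 4.26% of the named genes. The excess of lower loci was present in each range of reads, from 11% against 6.72% at 20 or more and fewer than 50 reads to 5.62% against 3.65% at 500 or more. With median-of-ratios size factors in place of library totals, all log2 ratios fall by 0.22, and 138 loci were higher and 293 lower. The loci that overlap only other Gm, Rik or LOC loci had the lowest median log2 ratio (−0.18) and those with a named gene on the opposite strand had 0.17. Across 1148 pairs, the log2 ratio of a locus and of the named gene it overlaps had a Pearson's correlation of 0.692. Nested loci may share reads with their gene, so the same reads may enter both log2 ratios and part of this correlation may be built in.

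The pooled nuclei differed between ages in marker genes of cell types. Pericyte and smooth muscle markers rose from 207 to 486 RPM in sum (6 of 7 genes present at both ages), a ratio of 2.35. Of these 6 genes, 5 were higher in the aged library, Myh11 the most at 66.4 and 220 RPM. Abcc9 was lower, at 24.8 and 21.2 RPM. Endothelial markers were at 533 and 922, fibroblast markers at 616 and 1028 and macrophage markers at 308 and 505. Of 7 genes in each list, 5, 6 and 7 were higher in the aged library. Endothelial Emcn and Vwf and fibroblast Col1a2 were lower. Cardiomyocyte markers were at 28657 and 26098, with all 7 genes present in these nuclei of the heart. Of these, 5 were higher in the aged library, and the sum was lower through Ttn, at 11849 and 6872 RPM. Lymphocyte markers were at 89.8 and 44.3 RPM in sum, with Themis at 27.9 and 2.76 and Skap1 at 17.6 and 5.17. Bank1 was also lower in the aged library, at 41.4 and 33.9 RPM. Cd79a, with 9 and 9 reads, and Ms4a1, with 4 and 5, were higher in RPM in the aged library, but from few reads. Cd3e and Cd3g, with 9 and 5 adult reads, were at 0 in the aged library. The part of these shifts in the values of the loci was not tested, and fewer nuclei of a type and less RNA per nucleus cannot be told apart in these pooled counts.

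**Figure D5:**
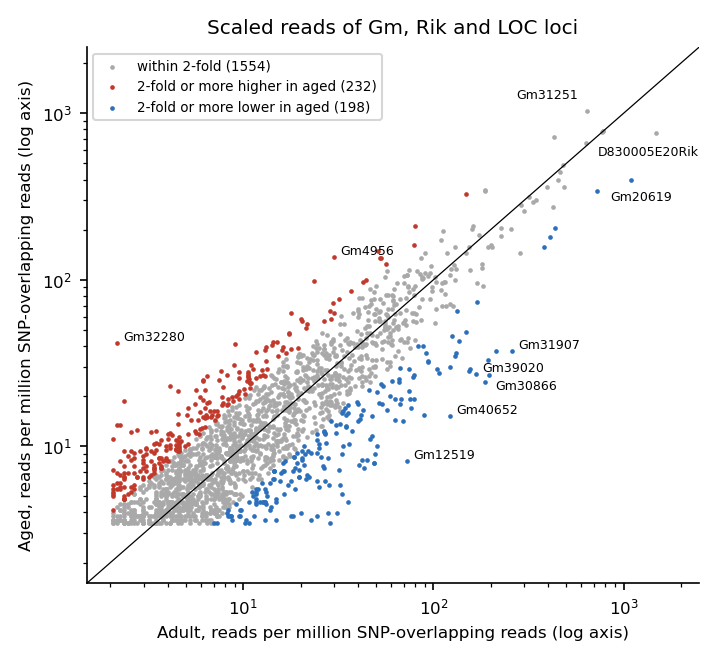
RPM in the adult (x axis) and aged (y axis) library on log axes, with 1 point per locus and the line of equal values. The 232 red loci are 2-fold or more higher and the 198 blue loci 2-fold or more lower in the aged library, and Gm32280 is farthest above the line.

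The highest ratio was found for Gm32280, which lies on chromosome 9 from 48665954 to 48677241 on the strand opposite to Zbtb16, the gene of the transcription factor PLZF. Gm32280 had 21 reads (2.15 RPM) at 9 weeks and 242 reads (41.7 RPM) at 78 weeks, 19.3-fold more (12.4 to 31.8). Zbtb16 rose 2.10-fold, from 502 to 1053 RPM, and Gm32280 held 0.429% of its reads at 9 weeks and 3.96% at 78 weeks. The rise at the locus was thus larger than that of the gene around it. Gm41604 inside Rfx2, a transcription factor gene, rose from 2.15 to 13.4 RPM (6.24-fold, 3.81 to 10.6), and Rfx2 rose 3.61-fold. Gm31734, which overlaps 1441 bp of the Wnt effector gene Tcf7l2, rose from 23.5 to 97.7 RPM (4.16-fold), while Tcf7l2 was at 378 and 416 RPM.

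Outside named genes, the pseudogene Gm4956 rose from 30.2 to 137 RPM (4.55-fold, 3.97 to 5.21) and had an allelic ratio of 0.677 and 0.609. Gm36220, a lncRNA locus of 399 bp, rose from 9.03 to 41.2 RPM (4.56-fold). A530050N04Rik, listed by RefSeq as Lncbate10, rose from 4.10 to 23.1 RPM (5.62-fold) and was BL6-biased with 0.925 and 0.821. Gm36025 rose from 2.26 to 13.4 RPM (5.95-fold), and all 22 adult and all 78 aged reads were BL6. A gain in reads was thus found both at loci read from both alleles and at loci read from BL6.

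Loci with the largest losses had many adult reads, as the limit of 20 aged reads requires. Gm12519 on chromosome 4 fell from 72.9 to 8.10 RPM (ratio 0.111, 0.0808 to 0.149), with an allelic ratio of 0.508 and 0.489. Gm40652 on chromosome 10 fell from 123 to 15.2 RPM (ratio 0.124) and was CAST-biased, with an allelic ratio of 0.0962 from 1196 reads and 0.261 from 88 reads. Gm40604 fell from 187 to 24.3 RPM (ratio 0.130) and Gm30866 from 196 to 26.7 RPM (ratio 0.136). Gm31907 inside Kcnn2, a calcium-activated potassium channel gene, fell from 257 to 37.4 RPM (ratio 0.145) together with Kcnn2, which fell from 885 to 174 RPM (ratio 0.196). Gm11264 and Gm10635 were at 20 and 27 reads in the aged library, ratios of 0.120 and 0.130. Gm39020, the locus most biased to BL6, fell from 167 to 27.0 RPM (ratio 0.162, 0.136 to 0.190). The allelic ratio of Gm39020 stayed above 0.97 at both ages, so the fall in reads was not accompanied by a change of allele.

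Of the 6 loci with the most reads, D830005E20Rik and Gm31251 lie at genes of calcium release and contraction, and Gm37013, Gm38666 and Gm38667 share the protocadherin cluster, with ratios of RPM between 1.00 and 1.01. D830005E20Rik, on the strand opposite to Trdn, the gene of the calcium release protein triadin, had 14496 adult and 4390 aged reads, with an allelic ratio of 0.429 and 0.430. It held 40.3% and 35.5% of the reads of Trdn. Without these reads Trdn had an allelic ratio of 0.554 and 0.568, so the locus was further to CAST than the rest of the gene at both ages. D830005E20Rik was at 1487 and 756 RPM (ratio 0.508), and Trdn had a ratio of 0.578. Gm31251, on the strand opposite to the β-myosin heavy chain gene Myh7, spans the hairpin of Mir208b, a cardiac microRNA encoded in Myh7. It had 6234 and 5955 reads, an allelic ratio of 0.521 and 0.496 and a ratio of RPM of 1.60, close to the 1.54 of Myh7, whose span it shares over 19286 bp. The reads of Gm31251 equal 77.8% and 81.2% of those of Myh7, so the same reads may be counted for both. Gm20619 on chromosome 6, which overlaps no named gene, fell from 1089 to 397 RPM (ratio 0.365) with an allelic ratio of 0.529 and 0.593.

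Per kb of span, Gm32672 had the most reads at 9 weeks, with 730, and 418 at 78 weeks, when the short Gm36220 had 599. It lies 1.55 kb from Myl2, the gene of the ventricular myosin regulatory light chain, and the RefSeq table lists the name as a synonym of Myl2. Gm32672 had an allelic ratio of 0.676 and 0.735, and Myl2 0.612 and 0.588. Their scaled reads moved differently, from 460 to 442 RPM at Gm32672 and from 104 to 187 RPM at Myl2. Gm40124 on chromosome 3 was the deepest CAST-biased locus per kb, with 1752 and 680 reads and an allelic ratio of 0.154 and 0.103. 5430431A17Rik, a lncRNA locus of 897 bp, had an allelic ratio of 0.620 at 9 weeks and 0.844 at 78 weeks.

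Across all loci, hairpins of microRNAs lay within 28, which together span 42 hairpins. Of these, 3110039I08Rik, which RefSeq lists as Mir100hg, the host of Mir100, Mirlet7a-2 and Mir125b-1, had 6148 and 3874 reads and an allelic ratio of 0.578 and 0.548. Gm34114, which spans Mir3966, was BL6-biased with 0.754 and 0.834 from 1700 and 1071 reads. 1700007G11Rik, listed as Cfap299, spans Mir703 and was BL6-biased with 0.967 and 0.942 from 123 and 156 reads. Mir703, counted on its own over the 109 bp it shares with the locus, had 83 and 90 reads with an allelic ratio of 1 at both ages. The same reads may thus be counted for both, and the bias of the locus may rest largely on them. A230057D06Rik, which spans 7 hairpins of the Mir344 family, was CAST-biased with 0.281 and 0.0909 from 32 and 22 reads. The counts of the loci are of the whole locus, with any reads over the hairpins, and do not measure the microRNAs.

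The allelic ratio differed between the libraries by 0.1 or more for many loci, in about equal numbers in each direction. It was lower in the aged library for 399 loci (20.1%), against 13.8% of all autosomal loci, and higher for 414 (20.9%), against 14.2%. The median absolute change was 0.0788, compared with 0.0531 for the named genes. In the range of 100 or more and fewer than 500 reads, 9.77% of loci were lower and 11.3% higher, against 9.12% and 9.91% of the named genes.

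Gm16386, a transcribed pseudogene on chromosome 17 from 22776230 to 22817747, had 763 BL6 and 151 CAST reads at 9 weeks and 86 and 101 at 78 weeks. Its allelic ratio was therefore 0.835 and 0.460, a change (adult minus aged) of 0.375 (Newcombe interval 0.299 to 0.448). Zfp945, the nearest named gene at 28.95 kb, moved in the same direction, with 0.563 and 0.330 from 1647 and 664 reads. Gm31282 on chromosome 15 had 26 of 35 and 4 of 22 BL6 reads, a change of 0.561 (0.3 to 0.720). Nipbl, its nearest named gene, was at 0.583 and 0.594. Gm34773 had 27 of 62 and 4 of 64 (0.435 and 0.0625), while Rcan2, a calcineurin regulator gene 0.898 kb away, was at 0.572 and 0.577. Gm33721 inside the circadian clock gene Arntl had 0.592 and 0.156, LOC108168166 inside Gucy1b2 0.828 and 0.351 and Gm32827 inside Tmcc3 0.872 and 0.423. Without the reads of these loci, Arntl was at 0.622 and 0.587, Gucy1b2 at 0.571 and 0.535 and Tmcc3 at 0.658 and 0.574. These ratios of the genes were also lower in the aged library, by less than those of the loci. They rest on 196 and 92 reads for Arntl, 56 and 43 for Gucy1b2 and 1584 and 763 for Tmcc3. No interval was computed for these differences, so the small ones at Arntl and Gucy1b2 are not set apart from counting error.

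In the other direction, Gm40734 on chromosome 10, from 88357322 to 88371636, had 157 BL6 and 263 CAST reads at 9 weeks and 36 and 7 at 78 weeks. Its allelic ratio was 0.374 and 0.837, a change of −0.463 (−0.557 to −0.319), and its scaled reads fell from 43.1 to 7.41 RPM. Gm36446, which overlaps Katnal1, had 32 of 63 BL6 reads at 9 weeks and 20 of 20 at 78 weeks. LOC108167995 inside Tssc1 had 0.333 and 0.776, Gm33453 inside the axon guidance gene Slit3 0.320 and 0.839, LOC105244467 0.418 and 0.820 and Gm34471 0.111 and 0.581. Without the reads of the nested locus, Tssc1 was at 0.586 and 0.678 and Slit3 at 0.494 and 0.505. Dram1, which Gm40734 overlaps in part, was at 0.480 and 0.642, and Katnal1 was at 0.519 and 0.517. Except for Gm16386 and Gm40734, these loci had fewer than 160 reads in each library. The intervals cover counting error only, and with 1 heart per age no difference between the ages could be set against the spread between animals.

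At the limit of 20 reads, 55 loci had exactly 20 reads in the shallower library and 47 further loci had 19 and were left out. Among the former, 0610009L18Rik had 20 and 20 reads with an allelic ratio of 0.450 and 0.5, 1700016C15Rik 33 and 20 reads with 0.182 and 0.5, and 2310061I04Rik 29 and 20 reads with 0.621 and 0.9. Among the latter, 1700019A02Rik had 80 and 19 reads with 0.713 and 0.579, 2410022M11Rik 30 and 19 with 0.567 and 0.421, and 4933413L06Rik 69 and 19 with 0.652 and 0.684. At 20 reads the exact interval of an allelic ratio of 0.5 runs from 0.272 to 0.728, so single ratios near this limit are imprecise.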

How the data were processed

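Nuclei of 1 adult and 1 aged heart were analysed. Per the submitters' notes and methods, the authors used Cell Ranger 7.1.0 for alignment to mm10, split alignments by nucleus with sinto, pooled nuclei with a BL6 active X and counted reads over SNPs with Allelome.PRO2 and the RefSeq annotation. Doublets were removed from the study's expression matrices with DoubletFinder, but no source states this for the nuclei pooled here. The deposited values are raw read counts of each allele per gene, the allelic ratio as a fraction rounded to 2 decimals and an allelic score, which was not used. The methods do not state whether strand was used or duplicates were collapsed. For the aged library, the label's 78 weeks were used, from which the file name differs.

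Allelic ratio, RPM, exact Clopper-Pearson 95% intervals, exact intervals of read ratios and Newcombe intervals were computed with SciPy 1.17.1 and pandas 2.3.3 and tested on simulated data. All cover counting error only. No test between ages was made with 1 library per age. Members and lists were chosen with earlier results of these data known. Positions count from 1 on GRCm38, and strand came from GENCODE M21 (997 loci) or RefSeq promoters (577), leaving 410 without. Loci were named by rank: up to 8 biased to each allele by the interval limit nearer 0.5, up to 6 with the largest allelic ratio change and up to 8 with the largest RPM ratio in each direction by the limit nearer no change, the 6 with most reads and the 6 with most reads per kb, up to 12 near imprinted genes, up to 8 that differ most from the gene they overlap, and 3 on each side of the read limit. A locus ranked by these lists is left out of the text. The loci of runs and of microRNA hairpins were chosen after their values were seen. Other read minimums, limits, scalings and overlap rules were tried.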

Additional observations from a re-analysis of the deposited data

Results flagged for a closer look

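In 18 loci the allelic ratio was 0.6 or higher in one library and 0.4 or lower in the other, with both exact intervals excluding 0.5, so the 2 libraries lay on opposite sides. The difference between the ages was not tested, since each age has 1 library. These are 0.907% of the loci, and 36 named genes (0.346%) met the same limits. Of these loci, 5 passed from BL6 in the adult to CAST in the aged library. The allelic ratio (adult and aged) was 0.604 and 0.347 for 3110002H16Rik, 0.645 and 0.345 for D130007C19Rik, 0.682 and 0.273 for Gm10516, 0.743 and 0.182 for Gm31282 and 0.661 and 0.263 for Gm40842. The other 13 passed from CAST to BL6. The allelic ratio was 0.355 and 0.744 for 1600002K03Rik, 0.369 and 0.734 for 2810002D19Rik, 0.353 and 0.660 for 4930545L23Rik, 0.366 and 0.771 for Gm31735, 0.387 and 0.780 for Gm38407, 0.390 and 0.622 for Gm40287 and 0.378 and 0.696 for Gm40733. It was 0.374 and 0.837 for Gm40734, 0.280 and 0.648 for Gm41025, 0.339 and 0.636 for Gm5563, 0.250 and 0.690 for LOC102634481, 0.375 and 0.646 for LOC108167934 and 0.333 and 0.776 for LOC108167995.

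Gm40733 and Gm40734 overlap each other on chromosome 10 and fell from 474 and 420 adult reads to 46 and 43 aged reads, so they are not independent. Gm5563 lies opposite to Tbx5, a cardiac transcription factor gene with an allelic ratio of 0.557 and 0.595, and Gm40842 overlaps Hpcal1 with 0.510 and 0.493. Npc1, the cholesterol transporter gene that 3110002H16Rik overlaps, moved in the direction of the locus, with 0.550 and 0.415.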

How the results depend on the processing

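No paired analysis was possible because each age has 1 library and no test was made. The count of BL6-biased loci (207) was 94 and 51 with a minimum of 50 and 100 reads, 86 and 35 with allelic ratio limits of 0.8 and 0.9, 86 for loci without overlap, and 123, 59 and 25 for Gm, Rik and LOC loci alone. The minimums left 1094 and 621 of the 1984 loci, and 580 loci were without overlap. The count of CAST-biased loci (80) was 31 and 9 with these minimums, 35 and 14 with limits of 0.2 and 0.1, 47 without overlap, and 14 and 6 for Rik and LOC loci alone. The CAST-biased share was 1.5% at 100 or more and fewer than 500 reads and 1.12% at 500 or more. Over all loci it was 4.03%. Loci 2-fold higher in the aged library (232) were 113 and 56 with these minimums, 67 without overlap, 138 with median-of-ratios size factors and 511 at a 1.5-fold limit. Loci 2-fold lower (198) were 100, 51, 73, 293 and 400 in the same order. Loci with an allelic ratio lower by 0.1 with age (399) were 152 and 54 with these minimums, 196 with the interval also on that side of 0 and 125 without overlap, and those with a higher allelic ratio (414) were 154, 68, 214 and 129. Loci that overlap another (1404) were 914 when at least 50% of the span had to be covered. Loci that differ from the overlapping gene (49 of 1148) were 27 of 672 with a minimum of 50 reads for both and 28 of 699 when wholly inside. The lower counts come with fewer loci or stricter limits, the 1.5-fold limit is looser, and the size factors are a different scaling. The median log2 ratio of 0.09 became −0.13 with these size factors, a reversal, and 0.0505 without overlap. The median adult allelic ratio of 0.540 was 0.550 without overlap. The remaining 27 values stayed within 1.5 times or within the interval of the median, including removal of the nested reads from the host (44), which was chosen after seeing the data.

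Limits are the single heart per age, 1 direction of the cross, alignment to the BL6 reference and reads not separated between overlapping loci. Low read numbers of most loci and the pooling of all cell types are further limits.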
